A study of Mus musculus with 2 samples.

Results

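The genes described here are 10 of the 32285 genes in the files, chosen by symbol as ligands, receptors and vessel wall genes of the VEGF, angiopoietin and apelin systems. They are the ligand genes Vegfa, Angpt1, Angpt2 and Apln, the receptor genes Kdr, Flt1, Tek and Aplnr, and the vessel wall genes Plvap and Cldn5, and all 10 symbols matched 1 gene each. Whole pituitary glands of male mice of the inbred strain C57BL/6 were dissociated and sequenced as single cells in droplets, from the 3′ end of transcripts. The old library held 10 glands pooled from mice of 20 months, and the young library held 10 glands pooled from mice of 2 months. With 1 library per age there was no test between ages and no replicate check, and pooling leaves differences between mice unmeasured. All intervals are at 95% and describe counting error alone.

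VEGF-A is a secreted growth factor for blood vessels that binds the endothelial receptor KDR, which carries most of its signal, and FLT1, which binds it tightly but signals weakly. Angiopoietin 1 activates the endothelial receptor TEK and stabilises vessels, while angiopoietin 2, made largely by endothelial cells, can block TEK. Apelin acts on the G protein-coupled receptor APLNR, which in vessels is found mainly in veins and capillaries. PLVAP forms the diaphragms of fenestrated capillaries, the leaky vessels through which pituitary hormones reach the blood. CLDN5 is the tight junction claudin of sealed vessels such as those of the brain.

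Captured transcripts were counted by unique molecular identifiers (UMIs), 138427393 in the old and 154510099 in the young library. After filtering, 9017 old and 8531 young barcodes remained. Of these, 5535 old and 0 young barcodes fell into a cluster whose profile matched that of empty droplets, which was set apart as free RNA. The droplet profile was summed over both libraries, whose barcodes of at most 100 UMIs held 26933036 old and 4237840 young UMIs. It was thus not an equal screen of both, and a match of young barcodes to their own droplets was not tested. All kept barcodes, those of the free RNA cluster included, were clustered together without the 10 genes. The other clusters held 3482 old and 8531 young barcodes, of which 204 old and 310 young ones stayed unnamed. Clusters were named from markers that hold none of the 10 genes, so that each class is called by its name followed by "like". Both libraries shared 26 kept barcodes, 0.288% of the old and 0.305% of the young ones, and none of them lay in the endothelial cell-like class. Levels are given as CPM, the UMIs of a gene summed over a class and scaled to the same total, from which 7 hormone genes and 13 mitochondrial genes were left out. A gene was called higher or lower when it had at least 20 UMIs in both libraries together and a ratio, old over young, of at least 2 or at most 0.5.

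Stretches before the transcription starts of 4 of the vessel genes are shown because 3 of them, Kdr, Flt1 and Tek, stayed within 2-fold between the ages in endothelial cell-like cells, whereas Cldn5 did not. They are the 150 bases before the start in the RefSeq promoter table of build GRCm38.p6, written 5′ to 3′ on the strand of the gene, and 6 of the 10 genes were matched in that table. Capitals mark GGAA and its reverse complement TTCC, the core letters bound by ETS factors, a family active in endothelial cells.
Kdr: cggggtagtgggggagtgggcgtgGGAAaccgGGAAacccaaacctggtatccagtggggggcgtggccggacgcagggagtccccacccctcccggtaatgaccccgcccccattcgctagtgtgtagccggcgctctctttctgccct
Flt1: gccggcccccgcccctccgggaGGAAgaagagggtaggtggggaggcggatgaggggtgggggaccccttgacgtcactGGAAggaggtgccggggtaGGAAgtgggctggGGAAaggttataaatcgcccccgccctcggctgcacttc
Tek: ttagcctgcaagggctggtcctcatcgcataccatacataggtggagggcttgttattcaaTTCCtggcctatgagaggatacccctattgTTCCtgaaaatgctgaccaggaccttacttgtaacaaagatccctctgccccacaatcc
Cldn5: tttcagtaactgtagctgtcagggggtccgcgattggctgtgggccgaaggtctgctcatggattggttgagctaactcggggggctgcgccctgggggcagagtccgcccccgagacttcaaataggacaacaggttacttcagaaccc

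The Kdr window (chr5:75978456-75978605, minus strand) held 2 cores, the Flt1 window (chr5:147726012-147726161, minus strand) held 4, and the Tek window (chr4:94739139-94739288, plus strand) held 2, both as TTCC. The Cldn5 window (chr16:18776697-18776846, plus strand) held 0. The Apln window, not shown, held 2, and no window of Aplnr was read. Of all 32851 windows of this length in the table, 80.8% held at least 1 core, 10.9% held at least 4 and 19.2% held none, so that neither the counts of Kdr and Tek nor the 0 of Cldn5 is rare. A match of these letters describes the window and does not show a binding site. A link between the cores and the ratios between ages was not tested.

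Kdr, Flt1, Tek and Plvap lay mostly in endothelial cell-like cells, which held 84.6% of the old and 94.0% of the young Kdr UMIs outside the free RNA cluster. The same class held 90.7% of old and 92.9% of young Flt1 UMIs, 83.1% of old and 87.1% of young Tek UMIs, and 87.7% of old and 92.4% of young Plvap UMIs. For Aplnr it held 9 of 15 old and 86 of 95 young UMIs, and for Cldn5 11 of 19 old and 62 of 70 young UMIs, while stem cell-like cells held 5 of the 19 old Cldn5 UMIs. The ligands lay mostly in other classes. Stem cell-like cells held 59.8% of the old and 78.7% of the young Apln UMIs, and lactotroph-like cells, the prolactin cells, held 47.0% of the old and 53.6% of the young Angpt1 UMIs. Pituicyte-like cells, the glia of the posterior lobe, held 42.5% of the old and 14.1% of the young Vegfa UMIs. In the young library larger shares of Vegfa lay in somatotroph-like cells (7.29% of the old and 27.0% of the young UMIs) and in stem cell-like cells (8.79% of the old and 22.9% of the young UMIs).

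**Figure D1:**
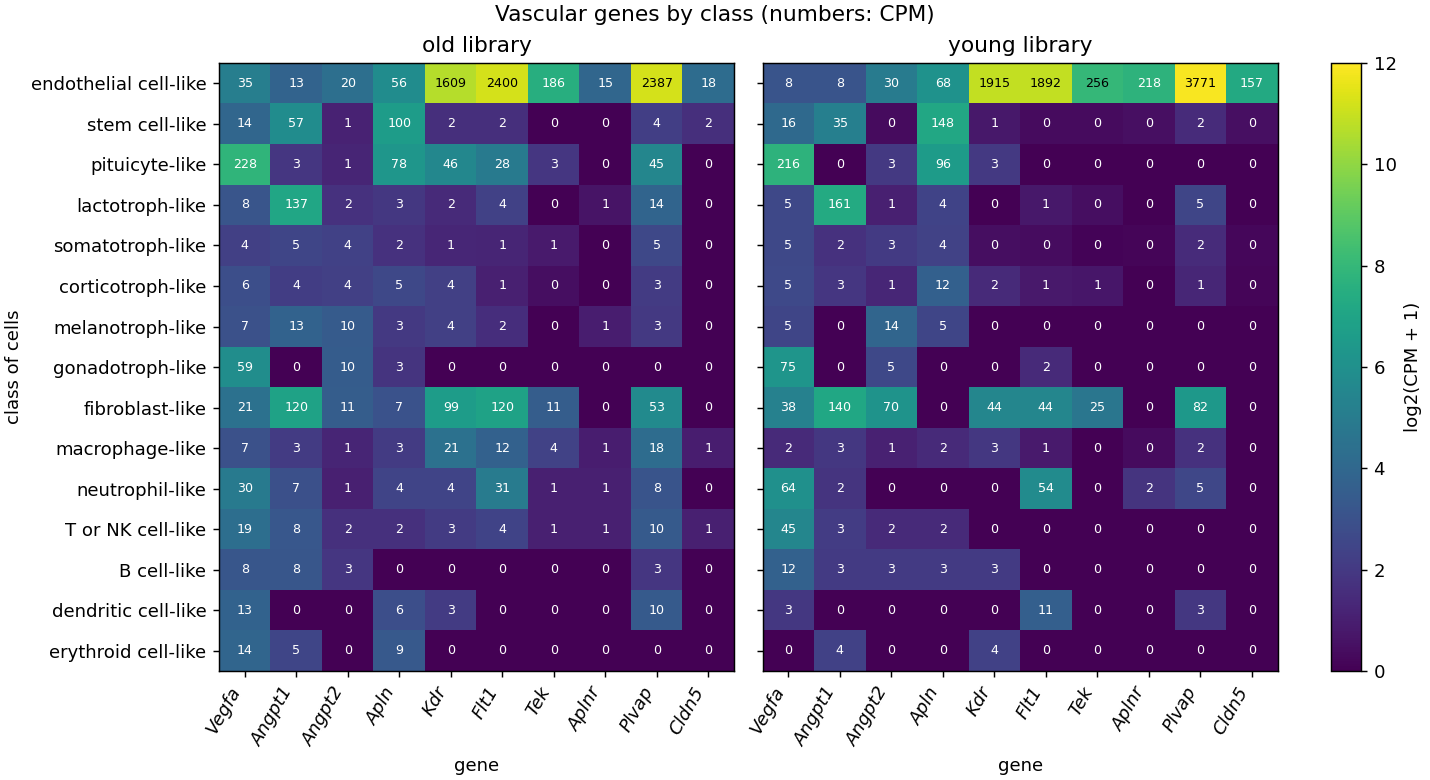
Level of each of the 10 genes (columns) in 15 classes (rows) of the old library (left) and the young library (right), coloured by log2(CPM + 1), with the CPM printed in each cell. The 4 receptors, Plvap and Cldn5 are brightest in the endothelial cell-like row, where Aplnr is at 14.8 CPM in the old and 218 CPM in the young library, while Vegfa is brightest in pituicyte-like, Angpt1 in lactotroph-like and fibroblast-like, and Apln in stem cell-like cells.

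The apelin ligand gene Apln was most abundant in stem cell-like cells, which are the Sox2-positive progenitors of the gland and here numbered 280 old and 974 young cells. It had 241 UMIs or 99.7 CPM (87.5 to 113) in old and 1080 UMIs or 148 CPM (139 to 157) in young stem cell-like cells. The intervals did not overlap, and the ratio was 0.674 (0.584 to 0.776), within 2-fold. At least 1 UMI was found in 44.6% (38.7 to 50.7) of old and 47.9% (44.8 to 51.1) of young cells, against 1.17% of old and 0.671% of young T or NK cell-like cells, which should lack the gene. Median depth was 8005 UMIs in old and 6382.5 in young stem cell-like cells, and 5498 UMIs in old and 4034 in young T or NK cell-like cells. With each cell thinned to 2000 UMIs, the shares of stem cell-like cells were 17.9% in the old and 18.1% in the young library, and since these do not follow the CPM no order is read from them. No single cell carried the sum, as the top cell held 3.32% of the old and 1.02% of the young UMIs. Across 14 other processing settings the log2 ratio ran between -0.59 and -0.34.

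Pituicyte-like cells (82 old and 51 young) also contained Apln, with 58 UMIs or 78.3 CPM (59.4 to 101) in the old and 32 UMIs or 96.1 CPM (65.7 to 136) in the young library. The ratio was 0.815 (0.520 to 1.30), and the intervals of the ages overlapped. Corticotroph-like cells, which make ACTH, had 14 UMIs or 4.97 CPM in the old and 91 UMIs or 11.8 CPM in the young library, 2.37-fold lower in old (1.34 to 4.51). Apln in empty droplets, taken to be the barcodes with no more than 100 UMIs, was at 8.93 CPM in the old and 17.1 CPM in the young library, and in barcodes of 500 to 900 UMIs it was at 8.69 CPM in the old and 9.81 CPM in the young library. A droplet level is that of free RNA alone, so a class below it is not shown to hold background only. From UMIs of hormones that corticotroph-like cells do not make, free RNA was estimated at 9.97% of the UMIs of the old and 11.7% of those of the young class. With this share of the droplet profile subtracted, Apln was at 4.65 CPM in the old and 11.4 CPM in the young class. Among all 10 genes Apln was the member called lower in corticotroph-like cells, where 6 were measured and 2.97% of all genes tested were called lower. Somatotroph-like and lactotroph-like cells stood at 2.27 and 2.83 CPM in the old and at 4.10 and 4.29 CPM in the young library.

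The genes whose profile over 15 classes and both libraries was most like that of Apln were Lama5, a laminin chain of basement membranes (Pearson's r = 0.903 over 30 profiles), and Mlc1, a membrane protein of glia (r = 0.895). Profiles of a library share its depth and free RNA, so that these values are a description.

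Angpt1, the gene of the activating ligand of TEK, was found mainly in an endocrine class. Lactotroph-like cells (284 old and 413 young) had 242 UMIs or 137 CPM (120 to 155) in the old and 450 UMIs or 161 CPM (146 to 176) in the young library. The ratio was 0.851 (0.725 to 0.997), and the intervals of the ages overlapped. Angpt1 UMIs were found in 46.8% of old and 50.1% of young lactotroph-like cells and in 3.51% of old and 1.34% of young T or NK cell-like cells. After thinning to 2000 UMIs the shares were 19.4% of old and 21.3% of young lactotroph-like cells, whose median depths were 4880.5 UMIs in the old and 8493 in the young library. No more than 2.89% of the old and 1.78% of the young UMIs came from 1 cell. Although left out of the clustering, Angpt1 was among the 10 genes with the largest fold in the lactotroph-like cluster over the cells outside it.

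Stem cell-like cells held the second large share of Angpt1, 26.6% of the old and 30.6% of the young UMIs. There it was at 56.7 CPM (47.6 to 67.0) from 137 UMIs in the old and at 35.2 CPM (31.0 to 39.7) from 257 UMIs in the young library. The intervals did not overlap and the ratio was 1.61 (1.30 to 1.99), with 30.4% of old and 21.0% of young cells holding a UMI. The top cell held 8.76% of the old UMIs, and without the top cell of each library the ratio was 1.52 (1.21 to 1.89). Within stem cell-like cells, Apln and Angpt1 thus stood on opposite sides of 1, and both stayed under 2-fold. Across 14 settings the Angpt1 log2 ratio in these cells ran between 0.60 and 0.82.

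Fibroblast-like cells, 39 old and 32 young and so too few for a comparison, had 120 CPM of Angpt1 (34 UMIs) in the old and 140 CPM (22 UMIs) in the young library, with 38.2% of the old and 36.4% of the young UMIs in 1 cell. In somatotroph-like cells, the growth hormone cells, Angpt1 was at 4.67 CPM (35 UMIs) in the old and 2.31 CPM (62 UMIs) in the young library, a ratio of 2.02 (1.30 to 3.11). The top cell held 14.3% of the old and 4.84% of the young UMIs, and without it the ratio was 1.83 (1.14 to 2.88) and no longer past 2-fold. Angpt1 in empty droplets was at 6.48 CPM in the old and 6.46 CPM in the young library, and free RNA was estimated at 9.08% of the UMIs of old and 5.54% of those of young somatotroph-like cells. With it subtracted, Angpt1 was at 4.49 CPM in the old and 2.07 CPM in the young class. Its profile was most like those of the collagen processing enzyme gene Adamts2 (r = 0.857) and of Col1a2, a chain of type I collagen (r = 0.841).

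Vegfa was at its highest level in pituicyte-like cells. They had 169 UMIs or 228 CPM (195 to 265) in the old and 72 UMIs or 216 CPM (169 to 272) in the young library. The ages overlapped, with a ratio of 1.06 (0.796 to 1.41) that ran between log2 values of 0.0006 and 0.29 over 14 settings. At least 1 UMI was found in 59.8% (48.3 to 70.4) of old and 68.6% (54.1 to 80.9) of young pituicyte-like cells, against 8.19% of old and 9.40% of young T or NK cell-like cells, and thinning gave 30.5% of old and 39.2% of young pituicyte-like cells. The top cell held 5.33% of the old and 8.33% of the young UMIs. Pituicyte-like cells made up 2.35% of old and 0.598% of young cells outside the free RNA cluster, beside the difference in their share of all Vegfa UMIs.

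Among endocrine cells, gonadotroph-like cells (35 old and 62 young, too few for a comparison) had 58.6 CPM of Vegfa (37.2 to 88.0) in the old and 75.2 CPM (54.9 to 101) in the young library, with a UMI in 9 old and 21 young cells. Somatotroph-like, lactotroph-like and corticotroph-like cells were between 3.87 and 7.92 CPM in the old and between 5.00 and 5.18 CPM in the young library. Vegfa in empty droplets was at 10.8 CPM in the old and 9.69 CPM in the young library. With the estimated free RNA subtracted, these 3 classes were at 3.20 to 7.61 CPM in the old and 4.65 to 4.88 CPM in the young library. Stem cell-like cells were at 14.5 CPM (10.1 to 20.1) in the old and 16.0 CPM (13.2 to 19.2) in the young library, a ratio of 0.904 (0.601 to 1.33).

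Immune classes also contained Vegfa. Neutrophil-like cells, a class whose leading genes include the monocyte marker Plac8, had 27 UMIs or 30.0 CPM in the old and 26 UMIs or 63.9 CPM in the young library, 2.13-fold lower in old (1.19 to 3.79). Without the top cell of each library, which held 14.8% of the old and 30.8% of the young UMIs, the ratio was 0.573 (0.296 to 1.13) and no longer past 2-fold, and at a resolution of 2 the class had 22.2 CPM in the old and 86.6 CPM in the young library. T or NK cell-like cells had 18 UMIs or 19.1 CPM in the old and 26 UMIs or 44.5 CPM in the young library, 2.33-fold lower in old (1.23 to 4.51). Vegfa was 1 of 2 measured members in neutrophil-like and the 1 measured member in T or NK cell-like cells, where 2.74% and 1.52% of all genes tested were called lower. The profile of Vegfa had no close match, the nearest being Cdkn1c, a cell cycle inhibitor gene (r = 0.760), and Ptprt, a receptor phosphatase gene (r = 0.755).

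Because VEGF-A is induced by hypoxia through HIF, 20 hypoxia response genes were set beside it in pituicyte-like cells, where 16 were measured. Their median log2 ratio was -0.06, against 0.09 over all genes tested there. Of the 16 genes 1 was called higher, Ndrg1 with 31 old and 5 young UMIs (a ratio of 2.79, 1.07 to 9.18, named after its value was seen), and 0 were called lower, where 10.4% of all genes tested were called higher and 3.09% lower. The glycolysis gene Pgk1 (ratio 1.31), the mitophagy gene Bnip3 (1.30) and Higd1a (1.00) had the largest ratios among genes with at least 50 UMIs. The smallest were those of P4ha1, a collagen prolyl hydroxylase gene (0.631), the vasodilator peptide gene Adm (0.720) and Ddit4 (0.762).

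Angpt2, the context-dependent TEK ligand, had few UMIs, 87 old and 139 young ones outside the free RNA cluster. Endothelial cell-like cells had 12 UMIs each, 19.7 CPM (10.2 to 34.5) in the old and 30.4 CPM (15.7 to 53.1) in the young library, and the intervals overlapped. Of the old UMIs 7 lay in 7 very large barcodes described below. Fibroblast-like cells had 3 UMIs in 39 old cells, 10.6 CPM (2.18 to 30.9), and 11 UMIs in 32 young cells, 69.8 CPM (34.8 to 125). Somatotroph-like cells held the largest share of Angpt2 UMIs, 30 in the old and 82 in the young library, at 4.01 and 3.06 CPM beside 2.45 CPM in old and 1.85 CPM in young empty droplets. In corticotroph-like cells it was called higher in old, with 11 UMIs in each library (ratio 2.74, 1.08 to 6.97). Lamb1 and Lama4, genes of laminin chains, had the most similar profiles (r = 0.881 and 0.828).

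**Figure D2:**
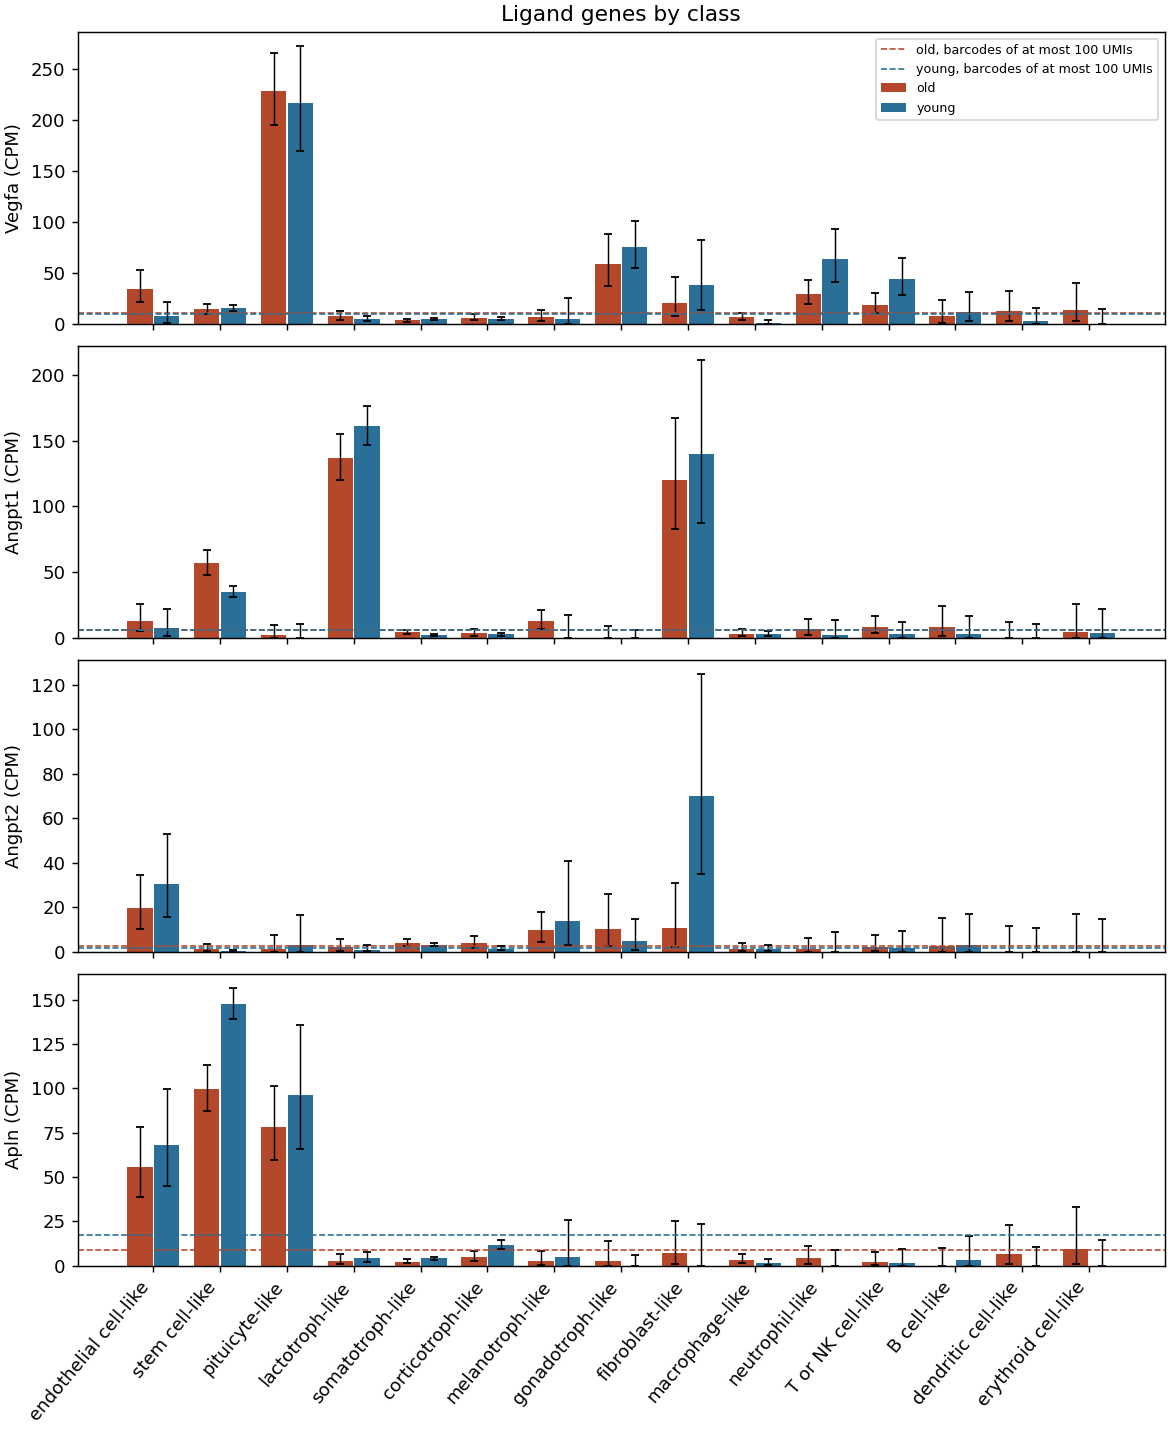
Level in CPM (linear axes from 0) of the 4 ligand genes in 15 classes, old left of young, with 95% Poisson intervals, and dashed lines at the level in barcodes of at most 100 UMIs of each library. Vegfa stands out in pituicyte-like cells at 228 CPM in the old and 216 CPM in the young library, Angpt1 in lactotroph-like, fibroblast-like and stem cell-like cells, and Apln in stem cell-like, pituicyte-like and endothelial cell-like cells.

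Endothelial cell-like cells numbered 76 in the old library, with a median depth of 5642 UMIs, and 82 in the young library, with 4519 UMIs. All 8 endothelial markers, among them Pecam1 and Cdh5, were present in both libraries, at 4852.5 CPM in sum in the old and 7489.4 CPM in the young library. Of the 10 genes 9 had at least 20 UMIs in this class. Vegfa was called higher in old, where 7.71% of all 7030 genes tested were called higher, and Aplnr and Cldn5 were called lower, where 5.25% were. The other 6 stayed within 2-fold, and Angpt1 had 8 old and 3 young UMIs.

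Markers of other cells in this class also differed between the libraries. The 8 stem cell markers summed to 4025.1 CPM in the old and 1350.0 CPM in the young class, with none at 0 in the old and 1 (Fxyd3) at 0 in the young class. The 7 macrophage markers summed to 512 CPM in the old and 182 CPM in the young class, the 7 pericyte markers to 201 CPM in old and 263 CPM in young, and the 6 fibroblast markers to 140 CPM in old and 114 CPM in young. The 6 oligodendrocyte markers summed to 120 CPM in the old and 10.1 CPM in the young class. Melanotroph markers summed to 4947.9 CPM in old and 1344.9 CPM in young, and corticotroph markers to 4888.7 CPM in old and 1365.2 CPM in young, where both lists hold Pomc and Tbx19. A small number of very large barcodes held most of the stem cell markers. In the old class 7 barcodes exceeded 3 times the median depth and held 2101 of 2447 stem cell marker UMIs, and in the young class 1 such barcode held 360 of 533. Without hormone and mitochondrial genes, these old barcodes had 12048, 18701, 30400, 31036, 35488, 39516 and 56876 UMIs, of 607931 in the old class. The young one had 29934 of 394824. These UMIs are part of the total to which every CPM of the class is scaled. They were a larger part of it in the old than in the young class, which lowers the ratio of every gene rare in these barcodes. What these barcodes held is given beside the genes it touches.

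Aplnr, the apelin receptor gene, differed most. Old endothelial cell-like cells had 9 UMIs or 14.8 CPM (6.77 to 28.1) and young ones 86 UMIs or 218 CPM (174 to 269). The intervals were far apart, with Aplnr 14.7-fold lower in old (7.40 to 33.3), the lowest ratio of all 7030 genes tested in the class. At least 1 UMI was found in 7 of 76 old cells, 9.21% (3.78 to 18.1), and in 37 of 82 young cells, 45.1% (34.1 to 56.5). After thinning to 2000 UMIs, 2 old cells or 2.63% and 27 young cells or 32.9% still held a UMI. In T or NK cell-like cells the share was 0.585% in the old library and 0 of 149 cells in the young one, which allows up to 2.01%.

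The Aplnr difference did not rest on 1 cell. The top cell had 2 of the 9 old UMIs (22.2%) and 14 of the 86 young UMIs (16.3%), and without them the ratio was 0.0624 (0.0242 to 0.135). Over 18 other settings the log2 ratio ran between -4.76 and -3.25, so that Aplnr was lower in old in all 18, including that in which the total was the UMIs of the 8 endothelial markers (-3.25). The very large barcodes held 3 of the 9 old UMIs.

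Small barcodes, which were not used to form the class, gave a check on Aplnr relative to Plvap, a gene of the same cells. For every 100 Plvap UMIs there were 0.620 Aplnr UMIs (0.284 to 1.18) in old and 5.78 (4.62 to 7.13) in young endothelial cell-like cells. In barcodes of 500 to 900 UMIs the values were 1.99 (0.802 to 4.11) in the old and 4.69 (2.82 to 7.33) in the young library. In barcodes of at most 100 UMIs they were 1.65 (0.943 to 2.68) in the old and 4.35 (0.897 to 12.7) in the young library. Aplnr was lower relative to Plvap in the old library in each of these, but the intervals of the small barcodes overlapped between ages. The Aplnr level itself was not lower in old barcodes of 500 to 900 UMIs (0.9502 CPM in old, 0.8589 CPM in young). In barcodes of at most 100 UMIs it was at 0.9787 CPM in old and 1.384 CPM in young, with overlapping intervals. Plvap in barcodes of 500 to 900 UMIs was at 47.6 CPM in the old and 18.3 CPM in the young library. The lower Aplnr value relative to Plvap there thus went with a higher level of Plvap in old.

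Cldn5, the tight junction claudin gene, was also lower in old, but from few cells. There were 11 UMIs or 18.1 CPM (9.03 to 32.4) in the old and 62 UMIs or 157 CPM (120 to 201) in the young library, 8.68-fold lower in old (4.53 to 18.3), next to Aplnr in the order of ratios. UMIs were found in 7 old cells, 9.21% (3.78 to 18.1), and in 13 young cells, 15.9% (8.72 to 25.6), with overlapping intervals. The top cell held 3 UMIs, 27.3% of the sum, in the old library and 29 UMIs, 46.8%, in the young library. Without them the levels were 13.3 CPM in the old and 85.3 CPM in the young library, a ratio of 0.156 (0.0621 to 0.344). After the top cell, the next young cells held 11 and 8 of the 62 UMIs, and every other young cell at most 3. A ratio without these cells as well was not taken, so the size of the difference rests on few young cells. A mean over cells in place of the sum gave 28.7 CPM in the old and 116 CPM in the young library, 4.05-fold lower in old.

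Relative to Plvap, Cldn5 showed this difference in the class and not in the small barcodes. There were 0.758 Cldn5 UMIs per 100 Plvap UMIs (0.378 to 1.36) in old and 4.16 (3.19 to 5.34) in young endothelial cell-like cells. Barcodes of 500 to 900 UMIs had 4.27 (2.39 to 7.05) in the old and 4.2 (2.45 to 6.72) in the young library. Barcodes of at most 100 UMIs had 2.37 (1.5 to 3.56) in the old and 2.90 (0.351 to 10.5) in the young library, with wide overlap.

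Aplnr, Cldn5 and Apln were found in part in the same young cells. Of the 37 young cells with Aplnr, 9 also had Cldn5, against 4 of the 45 without it, and 9 had Apln, against 2 of 45, at similar median depths of 4124 UMIs with and 4001 without Aplnr. The Aplnr-positive cells held 58 of the 62 young Cldn5 UMIs and 23 of the 27 Apln UMIs. Cells with 29, 11 and 8 of these Cldn5 UMIs had 10, 3 and 2 of the Apln UMIs, so these shares rest on few cells. In the old class 4 of 7 Aplnr-positive cells had Cldn5, against 3 of 69 others, and 4 had Apln, against 7 of 69. Of these 4 old cells 3 were very large barcodes. Median depth was 5654 UMIs in old cells with and 5019 in those without Aplnr, but 18701 in old cells with and 4937 in those without Apln. Cells of 1 library are not replicates, and co-detection was looked at after the values were seen. Over classes, the profile of Cldn5 was most like that of Aplnr (r = 0.985), and both were close to Gpihbp1, the gene of the capillary anchor of lipoprotein lipase (r = 0.945 for Cldn5 and 0.919 for Aplnr). Outside the endothelial cell-like class Aplnr and Cldn5 had few or no UMIs, so these r rest mainly on the levels already given for that class. Gpihbp1 was itself at 179 CPM in old and 441 CPM in young endothelial cell-like cells, a ratio of 0.407 (0.317 to 0.520).

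The VEGF receptor genes were abundant at both ages. Kdr had 978 UMIs or 1609 CPM (1509 to 1713) in the old and 756 UMIs or 1915 CPM (1781 to 2056) in the young class, and was found in 75 of 76 old and 77 of 82 young cells. The ratio was 0.840 (0.763 to 0.925), and 15 of 18 other settings also put Kdr lower in old, but it was higher in old with the 8 endothelial markers as the total (log2 ratio 0.37), without the very large barcodes (0.09) and with no doublet removal (0.06). Flt1 had 1459 UMIs or 2400 CPM (2278 to 2526) in the old and 747 UMIs or 1892 CPM (1759 to 2033) in the young class. Its ratio was 1.27 (1.16 to 1.39), and Flt1 was higher in old under 17 of 18 settings, with a log2 ratio of up to 0.97. It was lower (-0.18) when any barcode with 2 of the 8 endothelial markers was taken. The largest count in 1 cell was 4.6% of old and 4.76% of young Kdr UMIs, and 5.35% of old and 5.62% of young Flt1 UMIs. In T or NK cell-like cells, UMIs of Kdr, Flt1, Tek, Plvap and Cldn5 were found in between 0.585% and 4.68% of old cells and in 0 of 149 young cells.

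Relative to Plvap, both receptor genes were higher in old within the endothelial cell-like class. Per 100 Plvap UMIs there were 101 Flt1 UMIs (95.5 to 106) in old and 50.2 (46.6 to 53.9) in young endothelial cell-like cells, and 67.4 Kdr UMIs (63.2 to 71.8) in old and 50.8 (47.2 to 54.5) in young ones. In barcodes of 500 to 900 UMIs the values for Flt1 were 35.9 (29.9 to 42.7) in the old and 20.5 (16.3 to 25.4) in the young library, again without overlap, while those for Kdr, 34.8 (28.9 to 41.5) in the old and 32.1 (26.8 to 38.1) in the young library, overlapped. In barcodes of at most 100 UMIs Flt1 stood at 27.7 (24.5 to 31.3) in the old and 24.6 (14.4 to 39.4) in the young library, and Kdr at 29.9 (26.6 to 33.5) in the old and 33.3 (21.1 to 50) in the young library. Kdr was most like Emcn and Afap1l1 over classes (r = 0.987 and 0.975), and Flt1 most like Plvap and Emcn (r = 0.941 and 0.936), where Emcn is the gene of an endothelial surface mucin.

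Tek, the angiopoietin receptor gene, had 113 UMIs or 186 CPM (153 to 224) in the old and 101 UMIs or 256 CPM (208 to 311) in the young class. It was found in 50 of 76 old and 47 of 82 young cells. The ratio was 0.727 (0.551 to 0.960), lower in old under 16 of 18 settings and higher with the 8 endothelial markers as the total (log2 ratio 0.17) and without the very large barcodes (0.01). In the cell with most Tek there were 7.08% of old and 5.94% of young UMIs. She and Lims2 had the profiles most like that of Tek (r = 0.988 and 0.986).

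Plvap, the fenestral diaphragm gene, had 1451 UMIs or 2387 CPM (2266 to 2513) in the old and 1489 UMIs or 3771 CPM (3582 to 3968) in the young class, in 74 of 76 old and 81 of 82 young cells. The ratio was 0.633 (0.588 to 0.681) and below 1 under all 18 other settings. Over them the log2 ratio ran from -1.23, past 2-fold, to -0.03 with the 8 endothelial markers as the total. That total raised the log2 ratio of every gene of the class by 0.63. The lower level of Plvap in old thus went with a lower level of the class markers. The very large barcodes held 284 of the 1451 old and 13 of the 1489 young Plvap UMIs. They also add to the total of the class, and with them left out the Plvap ratio was still below 1. The top cell held 5.44% of the old and 5.31% of the young UMIs.

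**Figure D3:**
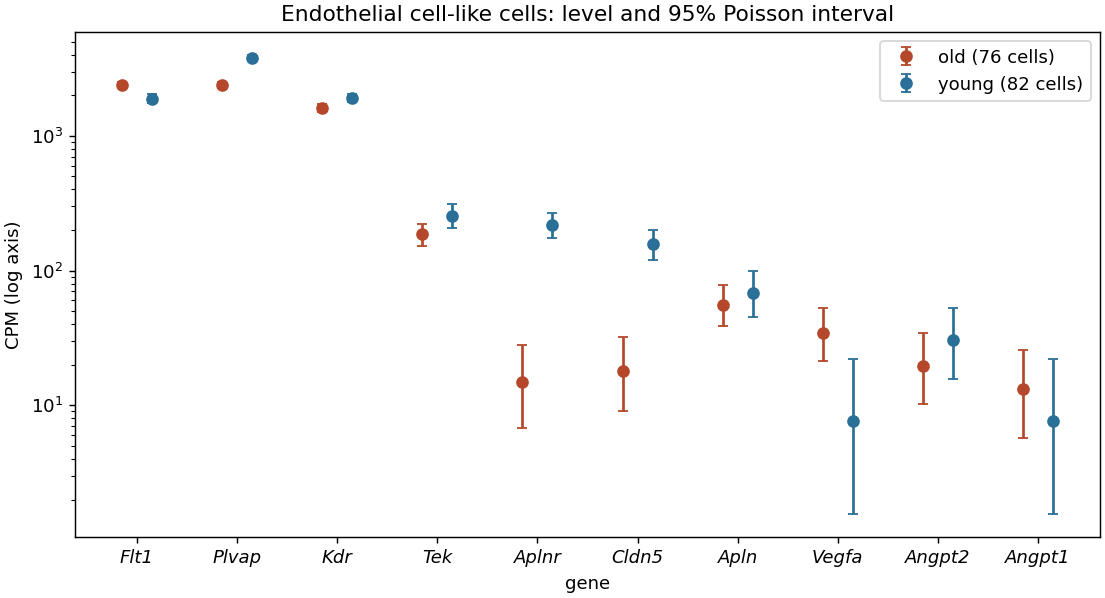
Level of the 10 genes in endothelial cell-like cells on a log axis in CPM, old (76 cells) left of young (82 cells), with 95% Poisson intervals. Aplnr and Cldn5 are the genes whose intervals lie far apart, at 14.8 and 18.1 CPM in old and at 218 and 157 CPM in young cells, whereas Flt1, Plvap, Kdr and Tek differ by less than 2-fold.

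**Figure D4:**
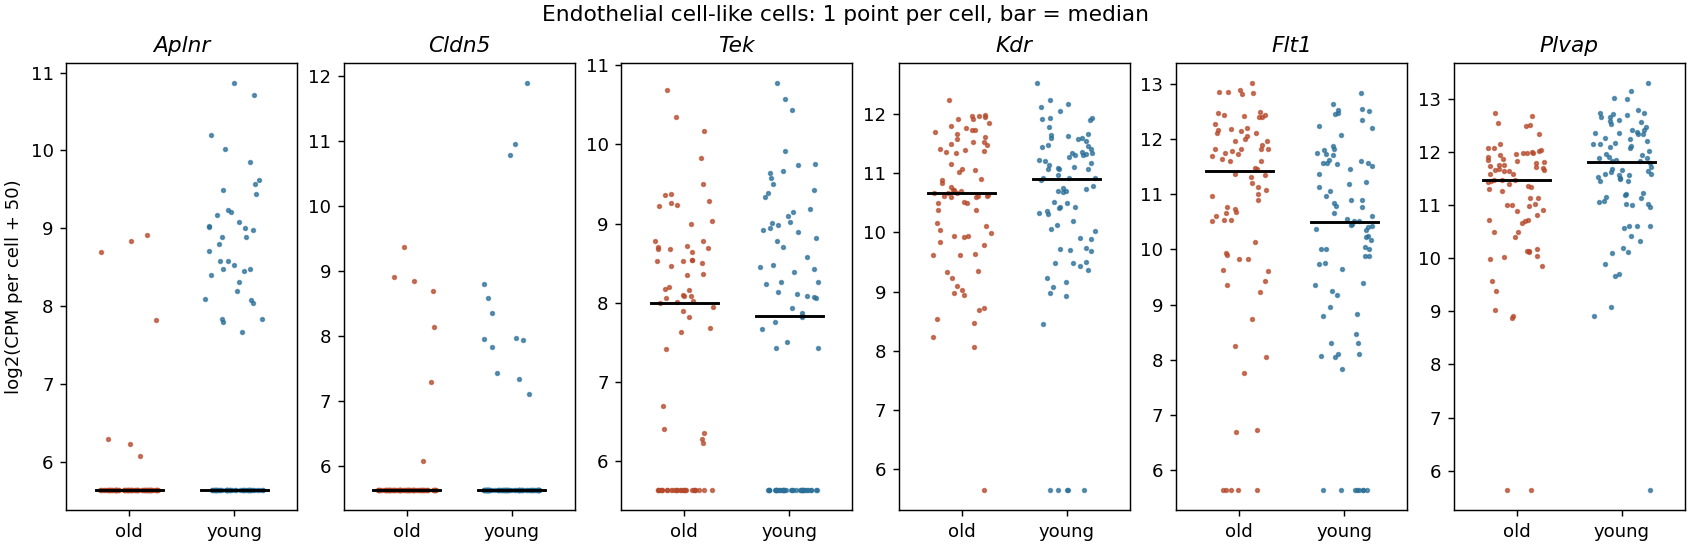
Each point is 1 endothelial cell-like cell, on a scale of log2(CPM per cell + 50), old left of young, with a bar at the median, in a panel with its own axis for each of 6 genes. Aplnr is above the bottom row of cells without a UMI in 7 of 76 old and 37 of 82 young cells, and for Cldn5 a few young cells lie far above the rest.

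Ligand genes in the endothelial cell-like class rested on few cells. Apln had 34 UMIs or 55.9 CPM (38.7 to 78.2) in the old and 27 UMIs or 68.4 CPM (45.1 to 99.5) in the young class, in 11 cells each. The top cell held 15 UMIs, 44.1%, in the old and 10 UMIs, 37.0%, in the young class. The old top barcode had 59383 UMIs in all and 957 UMIs of stem cell markers, while the young one had 8183 UMIs and 0 of stem cell markers. The very large barcodes held 27 of the 34 old Apln UMIs, and without them Apln was at 18.2 CPM in the old and 68.5 CPM in the young class, 3.76-fold lower in old.

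Vegfa in this class had 21 UMIs or 34.5 CPM (21.4 to 52.8) in the old and 3 UMIs or 7.60 CPM (1.57 to 22.2) in the young library, a ratio of 4.55 (1.36 to 23.8). The old UMIs lay in 7 cells with 38.1% in the top cell, and 15 of the 21 were in the very large barcodes that also held stem cell markers. At a Leiden resolution of 0.5, at which the class held 109 old and 113 young cells, Vegfa was at 13.1 CPM in the old and 15.3 CPM in the young library, a log2 ratio of -0.23. The part of stem cell or other RNA in this result was not tested.

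**Figure D5:**
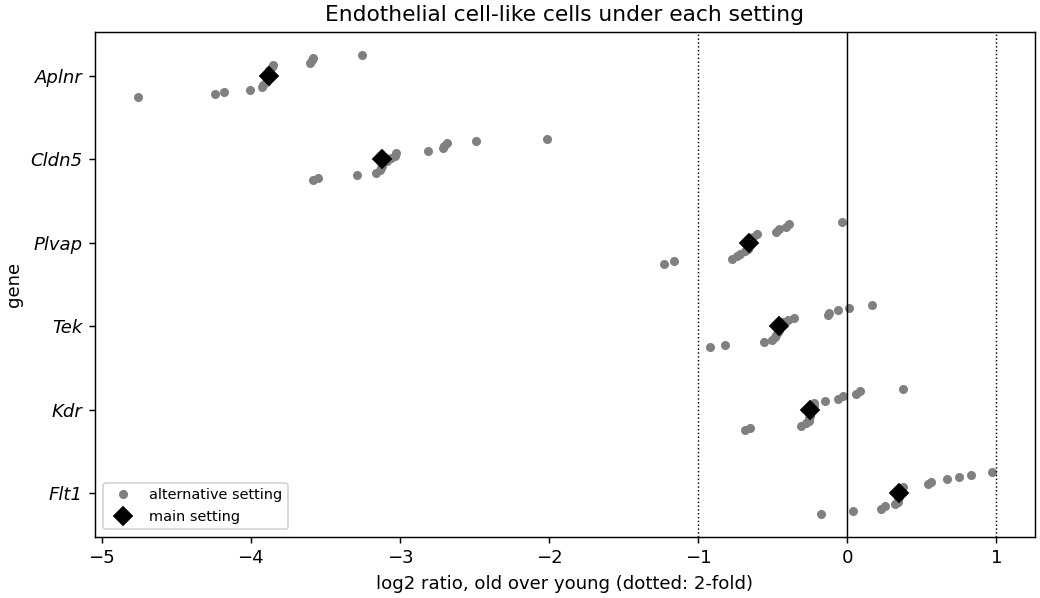
Log2 ratio, old over young, of 6 genes in endothelial cell-like cells under the main setting (diamonds) and 18 alternatives (points), with dotted lines at 2-fold. Aplnr lies between -4.76 and -3.25, Cldn5 between -3.58 and -2.02 and Plvap between -1.23 and -0.03, while the points of Kdr, Tek and Flt1 fall on both sides of 0.

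Other genes of the same pathways were read in endothelial cell-like cells from a list of 20, of which 14 were measured. Their median log2 ratio was -0.54, against -0.04 over all genes tested in the class. Flt4, the receptor gene for VEGF-C, was called lower in old (104 CPM in the old and 215 CPM in the young library, ratio 0.481, 0.342 to 0.675). Angptl4 was called higher from 19 old and 2 young UMIs (ratio 6.17, 1.49 to 54.6, named after its value was seen). Among genes with at least 50 UMIs, Esm1, a secreted proteoglycan gene of sprouting endothelium, had the largest ratio at 332 CPM in the old and 187 CPM in the young class (1.77, 1.35 to 2.35). Notch1 (1.20) and the VEGF co-receptor gene Nrp1 (1.00) followed. Besides Flt4, the smallest ratios were those of Rasip1, a gene of vascular lumen formation (0.545), and of Tie1, the partner receptor of TEK (0.552).

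Endothelial identity genes gave a scale for these values. Of 24 on the list 23 were measured, 0 were called higher and 2, Icam2 and Ramp2, were called lower, with a median log2 ratio of -0.63. Icam2, an adhesion molecule gene, was at 150 CPM in the old and 344 CPM in the young class (ratio 0.435). Ramp2, a subunit gene of the adrenomedullin receptor, was at 441 CPM in the old and 975 CPM in the young class (0.452). Cd93 had a ratio of 0.520. The transcription factor genes Sox17 (1.95) and Sox7 (1.62) and Podxl (1.13) had the largest ratios. The ratios of Plvap and Tek thus lay near the median of this list, which holds 7 of the 8 class markers, and those of Aplnr and Cldn5 lay below all 23 genes measured on it. The gene lists were read in the main setting only, with the very large barcodes in the total. The median ratios of the lists carry that total too and were not taken without those barcodes. The calls of Icam2, Ramp2 and Flt4, at ratios of 0.435, 0.452 and 0.481, lay close to the limit of 0.5. Whether they hold without those barcodes was not tested.

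Genes of junctions, caveolae and barrier transport did not share the low ratio of Cldn5. Of 14 on the list 11 were measured, with a median log2 ratio of 0.08. The 1 called higher was Cgn, the gene of the junction protein cingulin, with 20 old and 4 young UMIs (ratio 3.25, 1.09 to 13.1, named after its value was seen), and 0 were called lower. Caveolin 1 (Cav1, 1.11), the efflux pump gene Abcb1a (1.09) and Tjp1, a tight junction scaffold gene (1.06), had the largest ratios among genes with at least 50 UMIs. The junction adhesion gene F11r (0.563), Cav2 (0.711) and Cavin2 (0.845) had the smallest. Hypoxia response genes in this class had a median log2 ratio of 0.06 over 15 measured, and P4ha1 was the 1 called higher (2.63, 1.58 to 4.61).

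Outside the endothelial cell-like class, receptor and vessel wall UMIs were rare, and in old glial and macrophage classes a few barcodes held most of them. In pituicyte-like cells 5 members were measured, and Kdr, Flt1 and Plvap were called higher in old, where 10.4% of all genes tested were. Kdr had 34 UMIs in the old and 1 in the young library, Flt1 had 21 old and 0 young UMIs, and Plvap had 33 old and 0 young UMIs. A single old barcode that carried all 8 endothelial markers held 33 of the Kdr, 20 of the Flt1 and 27 of the Plvap UMIs. In macrophage-like cells all 4 measured members, Vegfa, Kdr, Flt1 and Plvap, were called higher in old, where 7.60% of all genes tested were.

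The macrophage-like values likewise rested on few barcodes. Kdr had 46 old and 10 young UMIs (ratio 7.49, 3.73 to 16.6), Flt1 had 27 old and 3 young UMIs (14.6, 4.51 to 75.4) and Plvap had 39 old and 8 young UMIs (7.93, 3.66 to 19.7). Of 416 old macrophage-like cells 3 carried at least 4 of the 8 endothelial markers, and they held 32 of the Kdr, 19 of the Flt1 and 23 of the Plvap UMIs, while none of 750 young cells did. Vegfa had 15 old and 6 young UMIs, 6.88 CPM in the old and 1.69 CPM in the young library, and 6.21 CPM in the old and 0.821 CPM in the young library with the estimated free RNA subtracted. In B cell-like cells, where 12.7% of all genes tested were called higher and 2.44% lower, none of the 10 genes had 20 UMIs.

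In endocrine and stem cell-like classes Plvap, Kdr and Flt1 had few UMIs. Plvap was called higher in old lactotroph-like cells (24 old and 13 young UMIs, ratio 2.92, 1.43 to 6.25), the 1 of 3 measured members called there, where 6.51% of all genes tested were called higher and 2.58% lower. It was also called in stem cell-like cells (9 old and 13 young UMIs, 2.09, 0.789 to 5.29), as 1 of 4 measured members, where 4.42% were called higher and 1.94% lower, but with no doublet removal its ratio there was 1.28. At a resolution of 0.5 that class had 110 CPM of Plvap in the old and 3.54 CPM in the young library. In somatotroph-like cells Angpt1, Kdr and Plvap were called higher of 6 measured, where 5.04% were called higher and 4.11% lower, and in corticotroph-like cells Angpt2, Kdr and Plvap of 6, where 3.90% were. None of these 3 corticotroph calls held under every setting, as the ratio of Angpt2 was 1.92 at a limit of 3000 UMIs, and with a UMI limit below the main one that of Kdr was 1.86 and that of Plvap 1.03, and without the top cell of each library that of Plvap was 1.92. These Plvap levels, 3.20 to 13.6 CPM in the old and 1.43 to 4.65 CPM in the young library, stood beside 59.3 CPM in old and 31.8 CPM in young empty droplets. Kdr in empty droplets was at 17.7 CPM in the old and 10.6 CPM in the young library, and so, as for Plvap, higher in old than in young droplets. With the profile of barcodes of at most 100 UMIs subtracted, the 11 old and 10 young Kdr UMIs of somatotroph-like cells left none. The 38 old Plvap UMIs of these cells also left none, so neither call is read as a difference between ages there. With the profile of barcodes of 500 to 900 UMIs subtracted, Plvap in somatotroph-like cells was at 0.552 CPM in the old and 0.631 CPM in the young library, while in lactotroph-like cells it remained at 9.72 CPM in the old and 3.36 CPM in the young library.

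Flt1 also had UMIs in an immune class. Neutrophil-like cells had 28 UMIs or 31.1 CPM in the old and 22 UMIs or 54.0 CPM in the young library, in 15 of 120 old and 12 of 80 young cells. The ratio was 0.575 (0.317 to 1.05), but at a resolution of 2 the neutrophil-like class had 15.6 CPM in the old and 9.62 CPM in the young library. The top cell for Flt1 held 25.0% of the old and 27.3% of the young UMIs. The same class had 4 old and 0 young Kdr UMIs and 7 old and 2 young Plvap UMIs. None of its cells carried 4 of the 8 endothelial markers, but an old barcode with 3 of them held 5 Flt1 and 5 Plvap UMIs. Flt1 was at 16.5 CPM in old and 7.84 CPM in young empty droplets.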

How the data were processed

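Raw UMI counts per gene and barcode were deposited by the authors for all observed barcodes, with no normalisation. Per the submitters' processing notes, Cell Ranger 6.0.2 and the mouse build GRCm39 were used, although the header of the matrices gives version 4. No coordinates of that build were used here. The promoter stretches are of build GRCm38.p6.

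Barcodes were kept with at least 2000 UMIs, at least 500 genes and at most 15% mitochondrial UMIs, 9783 old and 9210 young. Scrublet's automatic threshold called 3 old and 0 young doublets, so the top-scoring barcodes were taken out at Scrublet's expected rate, 766 old (7.83%) and 679 young (7.37%). Both libraries were clustered together from 3000 variable genes, 40 principal components and 15 neighbours, with Leiden clustering at resolution 1 and the 10 genes left out. Clusters took the name, of 21 classes, whose markers scored highest (mean log2 fold over the median cluster, 5 CPM added). The score had to reach 1 and exceed the next by 0.5, with 3 or more markers detected, 1 of them among the 20 leading genes, and no other class ahead among the 10 leading genes. Free RNA was a cluster with r of 0.95 or above to the summed profile of 10 to 100 UMI barcodes. Clusters of other classes led by Gh were left unnamed, a rule set after the data were seen. Of the 17 named classes, 10 had at least 50 cells in each library and were compared.

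Ratios carry exact conditional Poisson intervals, levels exact Poisson intervals and shares exact Clopper-Pearson intervals. For shares of 0 the limit that 3 counts allow is printed. Every kept barcode could be thinned to 2000 UMIs. Calculations were tested on simulated counts. The 10 genes and the gene lists were chosen with earlier results of these data known. Of each list, the 3 largest and 3 smallest ratios among genes with at least 50 UMIs were named, and for each of the 10 genes the 2 others with the highest correlation of log2(CPM + 5) profiles, over classes of at least 20 cells and genes of at least 100 UMIs. Alternatives covered the barcode limits, doublets, clustering, class rule, totals, free RNA and single cells. The software was scanpy 1.11.5, igraph 0.11.9, scipy 1.17.1, numpy 2.4.6, anndata 0.12.19, scikit-learn 1.9.0, pandas 2.3.3 and matplotlib 3.10.9 under Python 3.11.15.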

Additional observations from a re-analysis of the deposited data

How the results depend on the processing

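No paired analysis was possible because each age had 1 library. Of 574 alternative values, 517 stayed within the counting error of the main value (counts of genes within 1.5 times), 55 moved and 2 reversed, and the cause was not tested. Only genes called at least 2-fold in the main setting could count as reversed. The changes of side of Kdr, Tek and Flt1 in endothelial cell-like cells are thus not among the 2. A setting that left no UMIs of a gene at 1 of the ages gave no value. With each library clustered alone, 5 of the 10 genes were called in endothelial cell-like cells, in place of 3 in the main setting, where 9 were measured. The share of all genes called with each library clustered alone was not taken. In that setting the fibroblast markers summed to 3091 CPM in the old class of 109 cells and 101 CPM in the young class of 81 cells. The 2 classes thus differed in the cells they took in, and these calls are not read as a difference between ages. Angpt1 in lactotroph-like cells had a log2 ratio of -0.56 in place of -0.23 with a mitochondrial limit of 25%, and Apln in stem cell-like cells -0.34 in place of -0.57 with no doublet removal. The 2 reversals were Vegfa in endothelial cell-like cells, with a log2 ratio of -0.23 in place of 2.18 at resolution 0.5, and Plvap in somatotroph-like cells, -0.19 in place of 1.47 with the profile of barcodes of 500 to 900 UMIs subtracted. At limits of 3000 UMIs or 10% mitochondrial UMIs, with no doublet removal and at resolution 0.5, the fibroblast markers summed to between 2339 and 3091 CPM in the old and between 4969 and 6031 CPM in the young endothelial cell-like class, against 140 CPM in the old and 114 CPM in the young class of the main setting. The alternatives that took 4 of 8 endothelial markers as a gate, took those markers as the total or left out very large barcodes were chosen after seeing the data. At 76 old and 82 young endothelial cell-like cells, depth limits Aplnr, Angpt1, Angpt2, Apln, Vegfa and Cldn5 most, each with fewer than 40 old UMIs there.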
